A study of Mus musculus with 18 samples.

Results

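The comparison described here asks how much of the change in newly made RNA after 8 h of ERK activation differed between mouse embryonic stem cells with and without Med24. For each gene the quantity was the genotype by time interaction, that is, the log2 change from 0 h to 8 h in knockout cells minus the log2 change from 0 h to 8 h in rescued cells. It rested on 12 of the 18 libraries of the series, the 3 libraries each of 0 h rescued, 8 h rescued, 0 h knockout and 8 h knockout cells, and 14128 of 25897 genes passed the filter on low counts and were tested. The other 6 libraries, taken at 2 h, helped to estimate the spread. All cells were E14tg2a embryonic stem cells of 129SV background in which endogenous Med24 had been knocked out and which carried a doxycycline-regulated cDNA for FLAG-tagged Med24 and a cassette for the fusion cRAF-ErT2 and the doxycycline-responsive activator rtTA. Rescued cells, labelled WT, had been passaged with 500 nM doxycycline, so Med24 came from the cDNA and not from its own locus, and knockout cells had been passaged without it. Every rescued culture and no knockout culture received doxycycline, so effects of the drug and of Med24 cannot be told apart. All cells spent the last 24 h in serum and LIF with 250 nM PD173074, an FGF receptor inhibitor, in place of 2 uM Chir99021. The 8 h cells received 250 nM 4-hydroxytamoxifen (4OHT), which activates cRAF-ErT2, and the 0 h cells did not. RNA was labelled with 5 mM ethynyl uridine for 15 min and captured, so the counts reflect nascent RNA. The 3 libraries of a group are labelled clones A, B and C.

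Mediator is a large protein complex that carries signals from transcription factors bound at enhancers to RNA polymerase II at promoters, and Med24 is a subunit of its tail module. ERK is the last kinase of the RAF, MEK and ERK cascade. In embryonic stem cells its activity induces immediate early genes and inhibitors of its own cascade and leads cells out of the naive pluripotent state.

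The libraries held 6691177 to 14541145 counts, so that 3 counts corresponded to 0.196 to 0.629 CPM (counts relative to the TMM-scaled library total). The pluripotency genes of a list of 12 summed to 2515 to 4017 CPM in the 12 libraries, while 8 fibroblast markers summed to 6.15 to 9.43 CPM in the 8 h knockout libraries, 3.53 to 5.19 CPM in 8 h rescued and 2.52 to 4.94 CPM at 0 h. The part of cells with these markers in the results was not tested. Genes averaging over 1000 CPM took 20.3% to 26.8% of the counts in 10 of the 12 libraries, but 38.5% in 8 h knockout clone B and 45.8% in clone C, against 20.8% in clone A. Of the genes tested, 217 (1.54%) were at least 1.5 times higher in both clones B and C than in clone A of the 8 h knockout group. They included 2 of the 3 fibroblast markers tested. Others of the 217 genes are pointed out below. The 8 h knockout libraries of clones B and C were also left out together with 2 h knockout clone A, where genes averaging over 1000 CPM held 36.5% of counts. These 3 are called below the libraries rich in abundant genes. Without them clone A was the only 8 h knockout library. That fit thus had no replicates in this group, and its p-values are not given.

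Med24 was 528, 602 and 515 CPM in 0 h rescued clones A, B and C and 39.5, 41.7 and 35.5 CPM in 0 h knockout clones. At 8 h it was 405, 407 and 400 CPM in rescued clones and 41.1, 42.8 and 33.96 CPM in knockout clones. The genotypes did not overlap at either time. Med24 fell by 0.44 on the log2 scale in rescued cells and changed by 0.03 in knockout cells, giving an interaction of 0.47 ± 0.12 (SE, adjusted p = 0.00595 by edgeR's quasi-likelihood test with Benjamini-Hochberg adjustment, used throughout). Reads from the cDNA and from the gene's own locus were counted together.

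At an adjusted p under 0.05, 1113 genes had an interaction above 0 (7.88% of the genes tested) and 1254 had one below 0 (8.88%). The median interaction was 0.43 among the former, -0.60 among the latter and -0.01 over all genes tested, and 156 and 268 genes, respectively, differed by more than 2-fold. Most genes below 0 rose less strongly after 4OHT without Med24. Of the 1254, 702 rose less in knockout cells (median log2 change 1.27 in rescued and 0.54 in knockout cells), 370 had a positive change in rescued and a negative change in knockout cells, and 182 fell more. Of the 1113 genes above 0, 499 fell less in knockout cells (medians -0.96 and -0.38), 358 had a negative change in rescued and a positive change in knockout cells, and 256 rose more.

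Across 9780 genes whose 8 h change averaged over both genotypes passed the test, the slope of the knockout on the rescued log2 change was 0.78, and it was 0.74 among genes higher at 8 h and 0.82 among genes lower at 8 h. Taken within each clone letter the slope was 0.745, 0.728 and 0.773 for A, B and C. Genes are not independent, so no test was made of the slope. Measurement error in the rescued change alone lowers such a slope, and by how much was not tested. An interaction can also come from a genotype difference that was present before ERK activation. Among the genes above 0, 353 (31.7%) differed more between genotypes at 0 h than at 8 h, among those below 0 it was 238 (19.0%), and among all genes tested it was 39.5%.

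**Figure D1:**
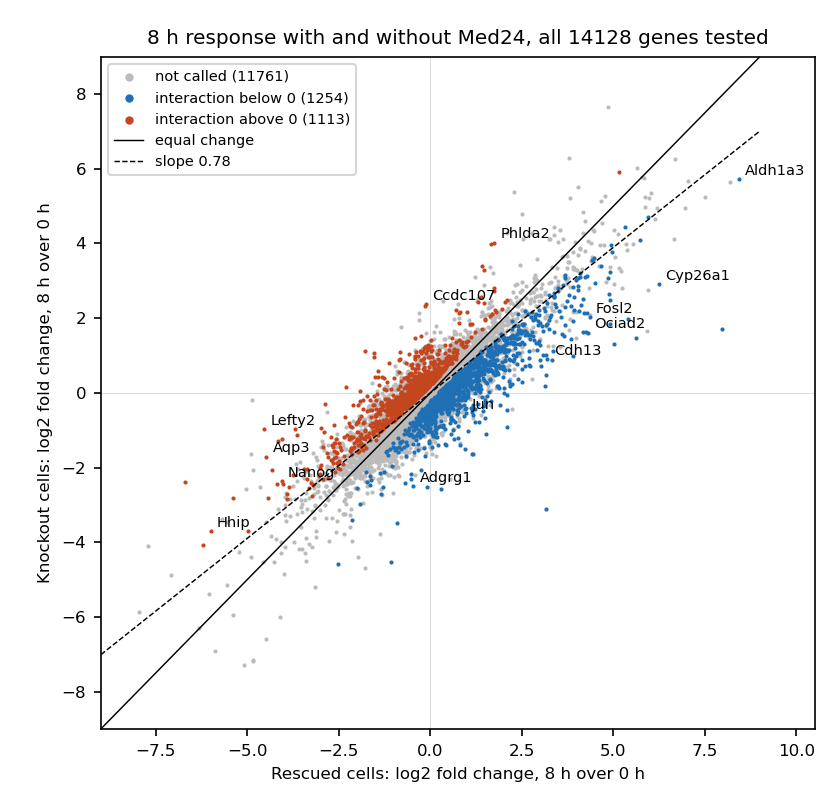
Log2 change from 0 h to 8 h in rescued cells (x axis) and in knockout cells (y axis), one point per gene for 14128 genes, coloured by the call of the interaction. The solid line marks equal change and the dashed line the slope of 0.78. Cyp26a1 and Ociad2 lie below the solid line on the side of induced genes and Lefty2 and Aqp3 above it on the side of repressed genes.

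The lowest interactions among genes averaging at least 5 CPM belonged in part to retinoic acid metabolism. Cyp26a1 encodes an enzyme that degrades retinoic acid and Aldh1a3 one that makes it. Cyp26a1 (chromosome 19, 37697798 to 37701536, GRCm38) was 0.626, 0.278 and 0.721 CPM in 0 h rescued and 0.575, 0.505 and 0.608 CPM in 0 h knockout clones A, B and C, and reached 38.4, 45.3 and 46.9 CPM in rescued but 2.32, 5.33 and 6.92 CPM in knockout clones at 8 h. The genotypes overlapped at 0 h and were 9.96-fold apart at 8 h, with an interaction of -3.33 ± 0.80 (adjusted p = 0.00383).

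Aldh1a3 rose from 0.250, 0.139 and 0.120 to 65.0, 59.8 and 65.2 CPM in rescued clones and from 0, 0.404 and 0.122 to 10.9, 9.49 and 11.5 CPM in knockout clones. The 8 h groups were well apart, but the 0 h levels rested on 4 counts in rescued and 5 in knockout cells. Its interaction of -2.70 ± 0.95 passed narrowly (adjusted p = 0.0482), not with clone letter as a block (adjusted p = 0.0611, or 0.0812 with clone letter within genotype), and it lost its call in 12 of 22 alternative analyses. Cyp26c1, a further retinoic acid hydroxylase, had an interaction of -1.56 ± 0.37 (adjusted p = 0.00372). Of the 18 retinoic acid genes tested, 4 were below 0, among them these 3, and none above, and the receptors Rara, Rarg and Rxra had interactions of 0.13, -0.04 and 0.01 that did not pass. The median over the list was -0.14.

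Promoter windows from RefSeq (GRCm38.p6) span 250 bases before to 50 bases after the annotated start. They are shown for the first 2 genes in rank order in each direction that had one. Ccdc107 was passed over, since its interaction of 2.50 became 0.44 without the libraries named above. The windows show what the leading genes carry at their starts. The windows are Cyp26a1 chr19:37697558-37697857 on the plus strand, Ociad2 chr5:73338898-73339197 on the minus strand, Aqp3 chr4:41098134-41098433 on the minus strand and Hhip chr8:80057959-80058258 on the minus strand. Each is written 5′ to 3′ on the gene's strand, and capitals mark the retinoic acid half-site AGTTCA and the TATA motif TATAAA on either strand.
Cyp26a1: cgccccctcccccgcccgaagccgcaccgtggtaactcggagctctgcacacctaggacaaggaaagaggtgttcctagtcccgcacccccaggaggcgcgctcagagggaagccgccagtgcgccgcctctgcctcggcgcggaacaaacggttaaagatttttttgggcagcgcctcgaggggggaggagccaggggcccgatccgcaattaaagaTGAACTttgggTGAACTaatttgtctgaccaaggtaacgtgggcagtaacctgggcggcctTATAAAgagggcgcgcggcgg
Ociad2: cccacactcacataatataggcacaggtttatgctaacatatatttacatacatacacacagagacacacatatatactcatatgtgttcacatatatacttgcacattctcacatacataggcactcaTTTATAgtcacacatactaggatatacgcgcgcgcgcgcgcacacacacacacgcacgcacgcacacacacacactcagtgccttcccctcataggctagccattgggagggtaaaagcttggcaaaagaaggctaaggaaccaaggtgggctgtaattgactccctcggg
Aqp3: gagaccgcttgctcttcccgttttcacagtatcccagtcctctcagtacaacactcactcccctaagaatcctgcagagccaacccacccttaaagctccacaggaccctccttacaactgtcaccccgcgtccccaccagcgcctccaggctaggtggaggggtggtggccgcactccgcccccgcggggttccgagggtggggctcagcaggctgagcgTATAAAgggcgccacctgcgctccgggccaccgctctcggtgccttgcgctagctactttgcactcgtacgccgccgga
Hhip: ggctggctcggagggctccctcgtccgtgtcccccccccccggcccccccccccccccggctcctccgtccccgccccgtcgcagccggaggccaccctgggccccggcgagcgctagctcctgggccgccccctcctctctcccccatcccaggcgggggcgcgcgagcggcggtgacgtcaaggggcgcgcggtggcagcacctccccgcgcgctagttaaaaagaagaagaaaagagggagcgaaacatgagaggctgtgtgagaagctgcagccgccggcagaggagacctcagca
The Cyp26a1 window held 2 half-sites on the opposite strand in the same orientation, separated by 5 bases and starting 32 and 21 bases before the start. Such a spaced pair was in 0.0244% of 32851 RefSeq windows, a single half-site in 14.0% and TATAAA in 13.6%. TATAAA lay 29 bases after the start in the Cyp26a1 window. It was also in the Aqp3 window, 29 bases before the start, and on the opposite strand in the Ociad2 window. The Hhip window held neither motif. A match describes these letters and is not a binding site. GC content and motif shares were not compared between gene sets, since only 78.3% of the genes tested had a window and the comparison was void below 80%.

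AP-1 genes, whose products form the dimeric AP-1 transcription factor, differed in size and in direction. Fosl2 was 4.38, 5.15 and 6.24 CPM in 0 h rescued and 9.65, 8.58 and 8.02 CPM in 0 h knockout clones, and 106, 107 and 111 CPM in rescued but 33.8, 33.95 and 40.7 CPM in knockout clones at 8 h. It was therefore higher without Med24 at 0 h and lower at 8 h, with an interaction of -2.33 ± 0.21 (adjusted p = 1.77e-09). Jun was 15.3, 17.96 and 15.1 CPM in 0 h rescued and 18.2, 16.6 and 16.9 CPM in 0 h knockout clones, and 31.7, 32.6 and 29.7 CPM in rescued but 11.3, 10.98 and 13.8 CPM in knockout clones at 8 h. Jun rose by 0.97 on the log2 scale in rescued cells and fell by 0.54 in knockout cells (interaction -1.51 ± 0.15, adjusted p = 2.48e-08), while its interaction at 2 h was 1.47. Fosl1 (-0.90 ± 0.14) and Junb (-0.72 ± 0.10) rose less in knockout cells, and Jund had an interaction of 0.98 ± 0.17, falling by 1.03 in rescued cells and changing by -0.05 in knockout cells. Fos, at -0.58 ± 0.29, did not pass (adjusted p = 0.178).

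Egr1, a zinc finger factor induced directly by ERK, had an interaction above 0. It was 45.1, 47.2 and 41.6 CPM in 0 h rescued and 17.1, 14.7 and 17.5 CPM in 0 h knockout clones, and 1534, 1685 and 1508 CPM in rescued and 1187, 882 and 893 CPM in knockout clones at 8 h. Knockout levels were below rescued levels at both times, but the distance was larger at 0 h, so the interaction was 0.77 ± 0.16 (adjusted p = 0.000867), or 0.50 with library totals alone (adjusted p = 0.137). Over the 26 immediate early genes tested, 11 were below 0 and 2 above, Egr1 and Jund, with a list median of -0.50. The others below 0 included the nuclear receptor gene Nr4a1 (-0.88 ± 0.09), the synaptic gene Arc (-0.96 ± 0.15) and the Kruppel-like factor gene Klf10 (-0.84 ± 0.11). Myc, with a rescued change of 3.05 and a knockout change of 2.92, had an interaction of -0.13 that did not pass, as did Ier2 at -0.04 and Nr4a2 at -0.06.

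The ERK feedback list, holding inhibitors of the ERK cascade and the ETS factor genes Etv1, Etv4 and Etv5, had 11 of 20 tested members below 0 and 3 above, and a median of -0.44. None of the 11 was an ETS gene, and the 3 above were Etv1, Etv5 and the phosphatase gene Dusp10 (0.64 ± 0.21). Dusp10 lost its call in 12 of 22 alternative analyses. The phosphatase gene Dusp5 was 18.4, 16.2 and 14.7 CPM in 0 h rescued and 16.1, 17.1 and 16.7 CPM in 0 h knockout clones, and 295, 282 and 302 CPM in rescued but 100.1, 91.5 and 94.8 CPM in knockout clones at 8 h. Its levels overlapped at 0 h and were 3.06-fold apart at 8 h (interaction -1.63 ± 0.12, adjusted p = 1.24e-10). The phosphatase genes Dusp1 (-1.11 ± 0.13), Dusp4 (-0.89 ± 0.11) and Dusp6 (-0.64 ± 0.10), the Sprouty gene Spry2 (-0.78 ± 0.08) and Phlda1 (-1.24 ± 0.23) were also below 0. Dusp4 differed by a different route, since its knockout level was higher at 0 h (28.9 ± 0.31 against 17.2 ± 1.93 CPM, SD, n = 3) and close to the rescued level at 8 h (266 ± 13.2 against 294 ± 18.7 CPM). Spry4 was lower in knockout cells at both times, by 1.07 at 0 h and 1.14 at 8 h on the log2 scale, so its interaction was -0.07 ± 0.11 and did not pass. The ETS genes Etv1 (0.46 ± 0.13) and Etv5 (0.27 ± 0.08) were above 0, Etv5 not with library totals alone, where it was -0.02, and Etv4 did not pass at -0.12 ± 0.15.

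Among growth factor genes, Ereg, which encodes the EGF receptor ligand epiregulin, had no counts in the 3 rescued libraries at 0 h and 0.345, 0.404 and 0.122 CPM in knockout libraries. At 8 h it was 3.73, 3.42 and 3.95 CPM in rescued and 1.01, 1.33 and 0.629 CPM in knockout clones. The order of the genotypes thus turned between 0 h and 8 h (interaction below 0, adjusted p = 0.00104), and no fold is given because 1 group was at 0. Hbegf, another ligand gene of this family, had an interaction of -0.74 ± 0.12.

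Among the other lowest interactions, Cdh13, the gene for T-cadherin, was 17.3, 16.2 and 16.5 CPM in 0 h rescued and 11.4, 12.6 and 11.3 CPM in 0 h knockout clones, and 153, 151 and 155 CPM in rescued but 20.2, 23.5 and 23.9 CPM in knockout clones at 8 h. It was 6.90-fold lower in knockout cells at 8 h (interaction -2.29 ± 0.14, adjusted p = 7.93e-13), and its interaction at 2 h was 0.01. Ociad2 rose to 77.9, 72.2 and 77.4 CPM in rescued and to 8.47, 11.2 and 14.3 CPM in knockout clones from 2.87 to 4.54 CPM in the 0 h libraries (interaction -2.69 ± 0.29). Adamts7, the gene of a secreted metalloproteinase, was 6.27 to 10.1 CPM over the 0 h libraries and 56.8, 63.9 and 64.9 CPM in rescued against 13.5, 15.0 and 19.3 CPM in knockout clones at 8 h (interaction -2.30 ± 0.19). For these 3 genes the 8 h groups did not overlap and the 8 h difference was the larger one. They were chosen by their interaction in the same libraries, so this describes them and is no further test.

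The homeobox gene Msx1 (-2.42 ± 0.52), the transcription factor gene Runx1 (-2.12 ± 0.21), the neuronal pentraxin receptor gene Nptxr (-2.23 ± 0.68) and the matrix protein gene Vwa1 (-2.22 ± 0.42) also rose less in knockout cells. Flt1, the gene of a VEGF receptor, rose by 2.02 in rescued cells and changed by 0.00 in knockout cells on the log2 scale. Hmga2, which encodes a chromatin architectural protein, reached 503, 506 and 515 CPM in rescued and 278, 266 and 288 CPM in knockout clones at 8 h, and started from 23.9, 30.4 and 29.2 and from 64.5, 64.9 and 60.2 CPM. Its genotype difference was larger at 0 h, where knockout cells were 1.19 higher, than at 8 h, where they were 0.87 lower, on the log2 scale. Tinagl1 was likewise higher in knockout cells at 0 h, by 1.79, and its 8 h levels of 16.4, 18.1 and 15.4 CPM in rescued and 11.8, 14.3 and 18.2 CPM in knockout clones overlapped.

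Adgrg1, which encodes an adhesion G protein-coupled receptor, was the one gene of the 15 lowest interactions that fell in both genotypes. It was 37.4, 31.2 and 35.2 CPM in 0 h rescued and 23.9, 21.6 and 21.6 CPM in 0 h knockout clones, and 28.2, 23.7 and 22.1 CPM in rescued but 4.13, 3.50 and 4.19 CPM in knockout clones at 8 h. Its fall was 0.47 in rescued and 2.49 in knockout cells on the log2 scale (interaction -2.03 ± 0.18, adjusted p = 1.38e-09). The cyclin D1 gene Ccnd1 had the same shape, from 32.4, 33.8 and 28.8 to 27.1, 28.3 and 29.2 CPM in rescued and from 22.5, 24.1 and 24.8 to 7.56, 9.99 and 8.59 CPM in knockout clones (interaction -1.31 ± 0.15, adjusted p = 2.69e-07).

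**Figure D2:**
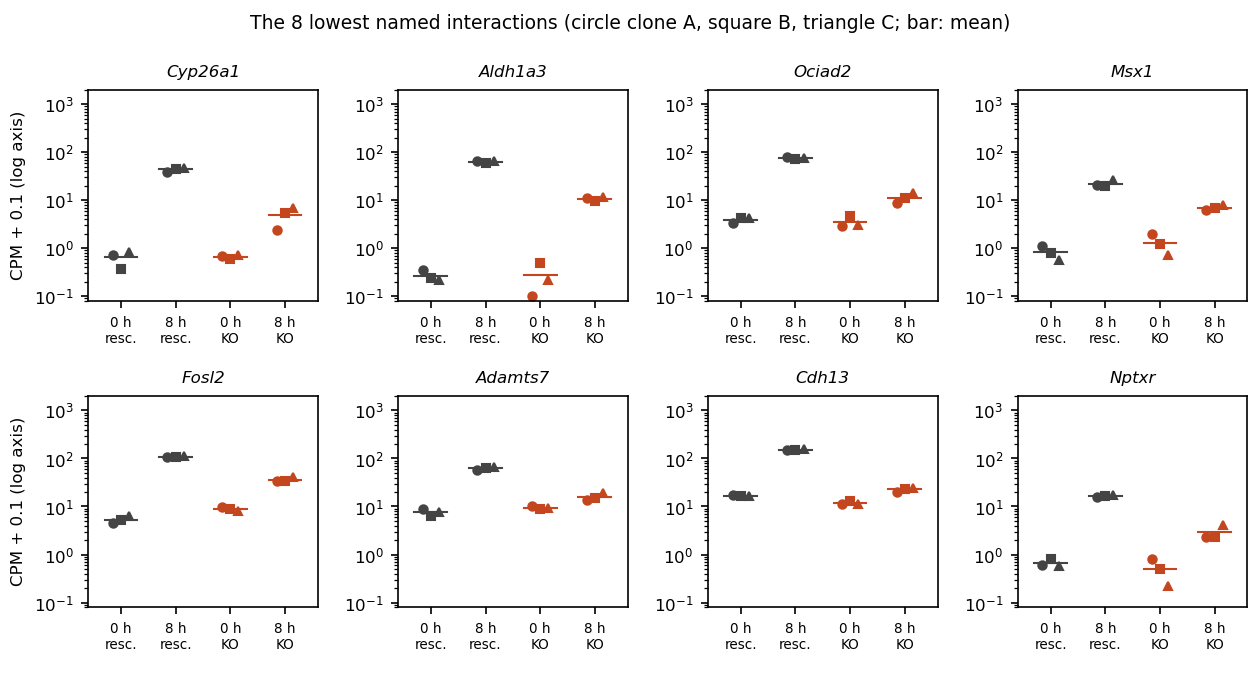
CPM + 0.1 on a log axis in each of the 12 libraries for the 8 lowest interactions among genes averaging at least 5 CPM, with bars at group means, rescued (resc.) in grey and knockout (KO) in red. In each panel the 3 points of the 8 h knockout group lie below those of the 8 h rescued group, while at 0 h the genotypes differ less.

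On the other side, Lefty2 had the highest interaction. Lefty2 encodes a secreted antagonist of Nodal. Lefty2 (chromosome 1, 180893108 to 180899103) was 46.2, 39.4 and 35.8 CPM in 0 h rescued and 60.6, 39.7 and 41.9 CPM in 0 h knockout clones, and 1.44, 1.77 and 2.21 CPM in rescued but 26.8, 22.1 and 22.9 CPM in knockout clones at 8 h. The genotypes overlapped at 0 h and were 13.9-fold apart at 8 h (interaction 3.57 ± 0.35, adjusted p = 1.05e-08). Its close copy Lefty1, with which reads can be shared, was 46.8 to 78.7 CPM over the 0 h libraries, and 0, 0.506 and 0.348 CPM in rescued and 0.705, 2.00 and 0.419 CPM in knockout clones at 8 h, and did not pass (2.09 ± 1.04, adjusted p = 0.178). The fall of Lefty1 was thus nearly complete in both genotypes, unlike that of Lefty2, although the difference between these 2 genes was not tested.

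Nodal itself was 69.0, 69.5 and 69.5 CPM in 0 h rescued and 72.4, 68.6 and 63.8 CPM in 0 h knockout clones, and 26.7, 27.5 and 26.0 CPM in rescued and 58.1, 41.4 and 49.1 CPM in knockout clones at 8 h (interaction 0.94 ± 0.13, adjusted p = 4.32e-06). The 8 h groups of Nodal did not overlap. Of the 15 Nodal pathway genes tested, 4 were above 0, among them Nodal, Lefty2 and Smad4, and 1 below (Smad7, -0.37 ± 0.08). With library totals alone Smad4 was at -0.05. The co-receptor gene Tdgf1, at 0.18, and the receptor gene Acvr2b, at 0.02, did not pass.

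Of the 20 naive pluripotency genes tested, 13 were above 0, 1 below and 6 did not pass. Nanog, a homeobox factor of the naive state (chromosome 6, 122707489 to 122714633), was 327, 337 and 326 CPM in 0 h rescued and 344, 368 and 362 CPM in 0 h knockout clones, and 19.9, 19.6 and 19.8 CPM in rescued and 66.9, 67.2 and 77.8 CPM in knockout clones at 8 h. Nanog fell in both genotypes and at 8 h stood 3.54-fold higher without Med24 (interaction 1.71 ± 0.13, adjusted p = 7.78e-11). The list median was 0.46, and 4 genes were above 0 with library totals alone, a scaling that moved the median of all genes to -0.30. In rescued cells 15 of the 20 fell, against 31.3% of all genes tested, and in knockout cells 12 fell, against 29.6%. Not all of the 13 fell in knockout cells, since Tet2, Zfp42 and Nr5a2 had knockout changes of 0.45, 0.39 and 0.63, as against -0.34, -0.16 and 0.18 in rescued cells. Nor were all of them higher without Med24 at 8 h. For Zfp42, Nr5a2 and Lifr the log2 difference of knockout from rescued cells was -0.48, -0.43 and -0.44 at 0 h. At 8 h it was 0.07, 0.02 and -0.04, whereas for Tet2 it was 0.08 at 0 h and 0.86 at 8 h.

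The regulators Prdm14 (1.53 ± 0.26), Tbx3 (0.91 ± 0.10), Tfcp2l1 (0.66 ± 0.08), Klf2 (0.64 ± 0.15) and Esrrb (0.47 ± 0.08) each fell less in knockout cells. Tcl1, at 1.02 ± 0.28, was 0.44 without the 3 libraries rich in abundant genes. Klf4 reached similar levels at 8 h, 21.8 ± 3.03 CPM in rescued and 24.2 ± 2.33 CPM in knockout cells (SD, n = 3), and its interaction of 1.00 ± 0.15 came with a lower knockout level at 0 h (99.1 ± 6.35 against 174 ± 24.6 CPM). The dioxygenase gene Tet2 was 83.9, 85.5 and 86.1 CPM in 0 h rescued and 83.6, 92.3 and 94.1 CPM in 0 h knockout clones, and 66.3, 66.3 and 70.0 CPM in rescued and 126, 122 and 119 CPM in knockout clones at 8 h, so it fell in one genotype and rose in the other (interaction 0.78 ± 0.08). Klf5, which rose in both genotypes, was below 0 at -0.33 ± 0.07, and Gbx2, at -0.99 ± 0.36, did not pass (adjusted p = 0.0591). The genes Pou5f1 (0.09) and Sox2 (0.06), which mark pluripotency in the naive and later states, did not pass either.

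Other high interactions had varied shapes. Aqp3, a water and glycerol channel gene, was 32.5, 33.6 and 34.1 CPM in 0 h rescued and 24.2, 23.9 and 25.2 CPM in 0 h knockout clones, and 1.24, 1.77 and 1.62 CPM in rescued and 6.65, 7.32 and 9.22 CPM in knockout clones at 8 h. The order of the genotypes turned, and the interaction was 2.78 ± 0.23 (adjusted p = 3.22e-10). The orexin receptor gene Hcrtr2 (1.86 ± 0.17), the sodium pump subunit gene Atp1b2 (1.79 ± 0.22), the butyrylcholinesterase gene Bche (1.68 ± 0.26), Sgo2b (1.60 ± 0.37) and the organic anion transporter gene Slco4c1 (1.59 ± 0.19) fell in both genotypes and less in knockout cells. Fstl5 and the C/EBP factor gene Cebpd rose more without Med24, Fstl5 to 17.6, 12.8 and 12.2 CPM against 3.59, 3.04 and 4.76 CPM and Cebpd to 10.7, 12.5 and 13.0 CPM against 4.97, 4.30 and 5.69 CPM. Hhip, which encodes a Hedgehog-binding inhibitor of that pathway, was 32.8, 28.7 and 32.1 CPM in 0 h rescued and 11.4, 9.39 and 10.1 CPM in 0 h knockout clones and fell to under 1 CPM in each 8 h library, and its interaction of 2.30 ± 0.52 came with this lower starting level. Of 11 Hedgehog genes tested, 3 were above 0 (Hhip, Gli1 and Ptch1) and none below. The log2 difference of knockout from rescued cells was -0.87 at 0 h and -0.11 at 8 h for Gli1. For Ptch1 it was -0.38 and -0.03, so both genes also started lower in knockout cells and were close at 8 h.

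Several high interactions rested on 8 h knockout clones B and C. Ccdc107 was 114, 472 and 867 CPM in 8 h knockout clones A, B and C and 79.5 to 149 CPM in the other 9 libraries. Its interaction of 2.50 ± 0.64 became 0.44 without the 3 libraries rich in abundant genes. Cd44, a hyaluronan receptor gene, was 4998, 16860 and 25280 CPM in these clones, and its interaction of 1.77 became 0.13. The same held for Fgfr2 (1.28 and 0.11) and for Cdk8 (1.32 and 0.13), the Mediator kinase gene, which took 45260, 112300 and 152400 CPM in the 3 clones. Phlda2, the gene of a placental growth regulator, was 10.1, 17.0 and 22.4 CPM in 8 h knockout against 9.15, 7.84 and 11.3 CPM in 8 h rescued clones. Its interaction of 2.29 ± 0.48 was 1.68 without the 3 libraries. Of the 156 genes more than 2-fold above 0, 25 belonged to the 217 genes that were high in both clones.

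**Figure D3:**
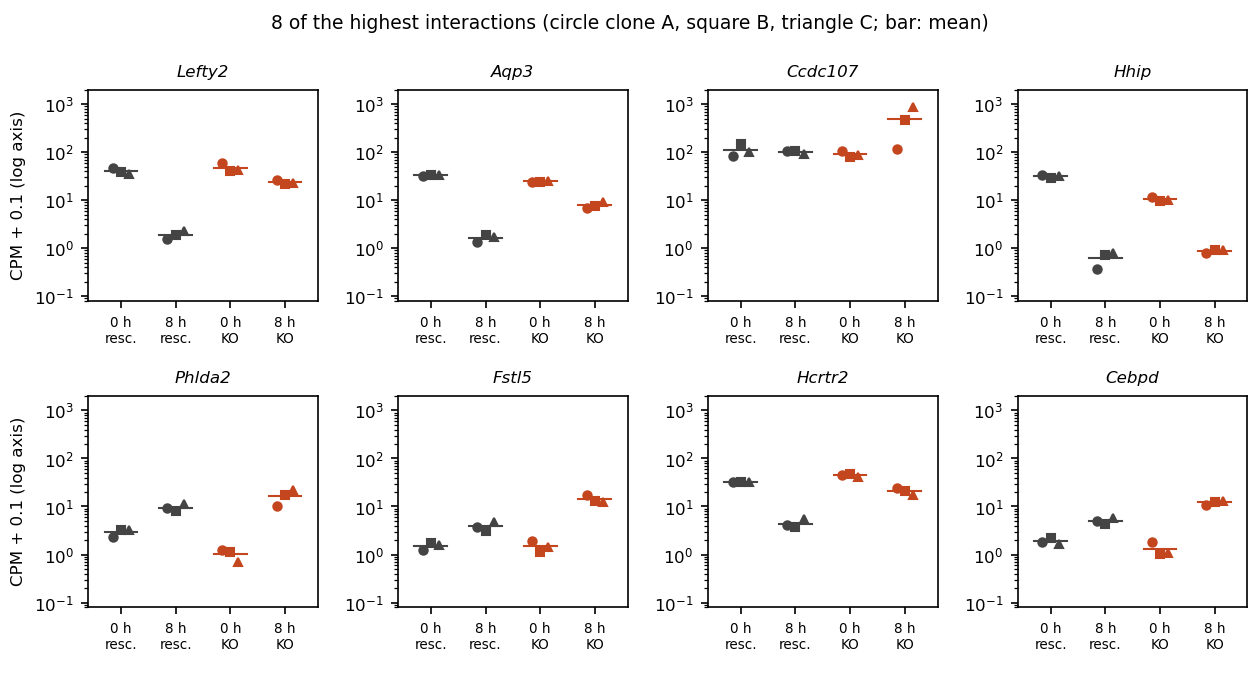
CPM + 0.1 on a log axis in each of the 12 libraries for 8 of the highest interactions among genes averaging at least 5 CPM, with bars at group means, rescued (resc.) in grey and knockout (KO) in red. Lefty2, Aqp3 and Hcrtr2 fall further in rescued than in knockout cells in every clone, whereas the high 8 h knockout mean of Ccdc107 comes from clones B and C.

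Of 13 genes of trophectoderm, the outer lineage of the blastocyst, 5 were below 0, none above and 8 did not pass, with a median of -0.94. Tead4, a TEAD factor of that lineage, rose from 58.2, 52.9 and 56.4 to 474, 506 and 494 CPM in rescued and from 77.4, 77.2 and 79.5 to 339, 368 and 364 CPM in knockout clones (interaction -0.94 ± 0.09, adjusted p = 1.26e-08). Gata3 rose from 24.0, 30.2 and 24.9 to 30.6, 35.6 and 31.8 CPM in rescued clones and fell from 30.7, 31.3 and 27.6 to 16.2, 17.8 and 20.5 CPM in knockout clones (interaction -1.05 ± 0.15, adjusted p = 1.04e-05). Plet1 (-0.997 ± 0.15) and the keratin genes Krt8 (-1.04 ± 0.28) and Krt18 (-1.05 ± 0.31) were below 0 too. Knockout levels of Krt8 and Krt18 were above rescued levels by 1.16 and 1.17 on the log2 scale at 0 h, and by 0.12 for each at 8 h. Cdx2, at -1.34, Gata2, at 0.06, and Tfap2c, at 0.09, did not pass. The summed trophectoderm list was 216 to 249 CPM in the 0 h libraries, 735 to 789 CPM at 8 h in rescued and 534 to 614 CPM in knockout cells. In the primitive endoderm list 1 of 14 genes was below 0 (the endocytic receptor gene Lrp2, -0.67 ± 0.08) and none above, and in the mesoderm list none of 7 passed in either direction.

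The Wnt list held 6 genes below 0 and 1 above of 16 tested, with a median of -0.57. The ligand gene Wnt7b rose to 108, 125 and 123 CPM in rescued and to 34.9, 44.3 and 40.3 CPM in knockout clones at 8 h from 20.2 to 23.1 CPM over the 0 h libraries (interaction -1.60 ± 0.14, adjusted p = 8.27e-10). Lef1, a transcription factor of Wnt signalling that also marks primed cells, had an interaction of -1.34 ± 0.30, while the feedback gene Axin2 did not pass at -0.07. Of 13 YAP and TEAD genes, 7 were below 0 and 2 above, among the former the coactivator gene Wwtr1 (-0.77 ± 0.11) and the angiomotin family gene Amotl1 (-0.70 ± 0.11), and Yap1 itself did not pass at 0.07. Cdh2, the N-cadherin gene, rose to 118, 112 and 119 CPM in rescued and to 29.9, 35.1 and 32.5 CPM in knockout clones at 8 h from 7.77 to 13.9 CPM over the 0 h libraries (interaction -1.34 ± 0.15), and the laminin receptor gene Itga3 had an interaction of -1.05 ± 0.13. The claudin gene Cldn6 rose by 1.42 in rescued cells and changed by -0.11 in knockout cells, where it started 0.90 higher. Of formative and primed genes, 3 were above 0 and 4 below of 16, so that list went both ways.

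Metabolic genes moved in smaller steps. Of 19 cholesterol synthesis genes, 8 were below 0 and none above, with a median of -0.33, and 13 of the 19 rose in rescued cells (30.7% of all genes tested did) against 5 in knockout cells (28.2%). Msmo1, a sterol synthesis gene, was 49.4, 49.4 and 49.8 CPM in 0 h rescued and 54.0, 65.1 and 55.3 CPM in 0 h knockout clones, and 141, 137 and 141 CPM in rescued and 82.4, 94.7 and 94.5 CPM in knockout clones at 8 h (interaction -0.87 ± 0.09, adjusted p = 7.20e-08). Tm7sf2, a sterol reductase gene (-1.12 ± 0.25), and the sterol sensor gene Insig1 (-0.66 ± 0.14) were also below 0. Of 16 glycolysis genes, 7 were below 0 and none above, with a median of -0.24. The glucose transporter gene Slc2a1 rose from 339, 308 and 334 to 562, 565 and 572 CPM in rescued clones and went from 302, 327 and 318 to 284, 328 and 386 CPM in knockout clones (interaction -0.72 ± 0.10, adjusted p = 4.67e-06). Its interaction at 2 h was -0.08, as against 0.03 for Pfkl and -0.15 for Pgam1, glycolytic enzyme genes that were at -0.69 and -0.53 at 8 h. Without the 3 libraries rich in abundant genes, Slc2a1, Pfkl and Pgam1 were at -0.94, -1.08 and -0.71. Msmo1, Tm7sf2 and Insig1 were then at -0.99, -1.08 and -0.73.

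For some gene families the count depended on single libraries. Of 55 histone genes tested, 18 were above 0 and none below, with a median of 0.66, but 24 of the 55 were at least 1.5 times higher in both clones B and C than in clone A of the 8 h knockout group. The count above 0 was 3 with library totals alone and 41 without 8 h knockout clone A. Hist1h1a, Hist1h2bm, Hist1h3a and Hist1h4a, the members with the smallest p, had interactions of 0.81, 1.41, 0.80 and 1.12. Without the 3 libraries rich in abundant genes these were 0.51, 0.96, 0.65 and 0.57. Of 77 ribosomal protein genes, 12 were below 0 and none above, with a median of -0.11. With clone letter, or clone letter within genotype, as a block, 7 and 6 were below 0. The family of zinc finger genes named Zfp had 43 of 326 members above 0 and 15 below, a median of 0.05, and 2 above and 22 below with library totals alone. The DNA replication genes Mcm4, Mcm5 and Mcm6 were above 0 by 0.22 to 0.27 and were below 0 with library totals alone. Without the 3 libraries rich in abundant genes they were at 0.11, 0.20 and 0.19. Of the Mediator genes other than Med24, Cdk8, Cdk19 (0.50 ± 0.10) and Med22 (-0.42 ± 0.13) passed.

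Where a list had no call in a direction with edgeR, DESeq2 and voom made no call in that direction either and no member had an unadjusted p under 0.05, for the retinoic acid, trophectoderm, mesoderm, Hedgehog, cholesterol, glycolysis, histone and ribosomal protein lists. The primitive endoderm list, with none called above 0, had 2 genes above 0 at an unadjusted p under 0.05 and 1 called by each of the other tools. The SRF and actin list, likewise with none above, and the DNA replication list, with none below, each had 1 gene at an unadjusted p under 0.05 in that direction, and voom called 1 in each and DESeq2 none.

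**Figure D4:**
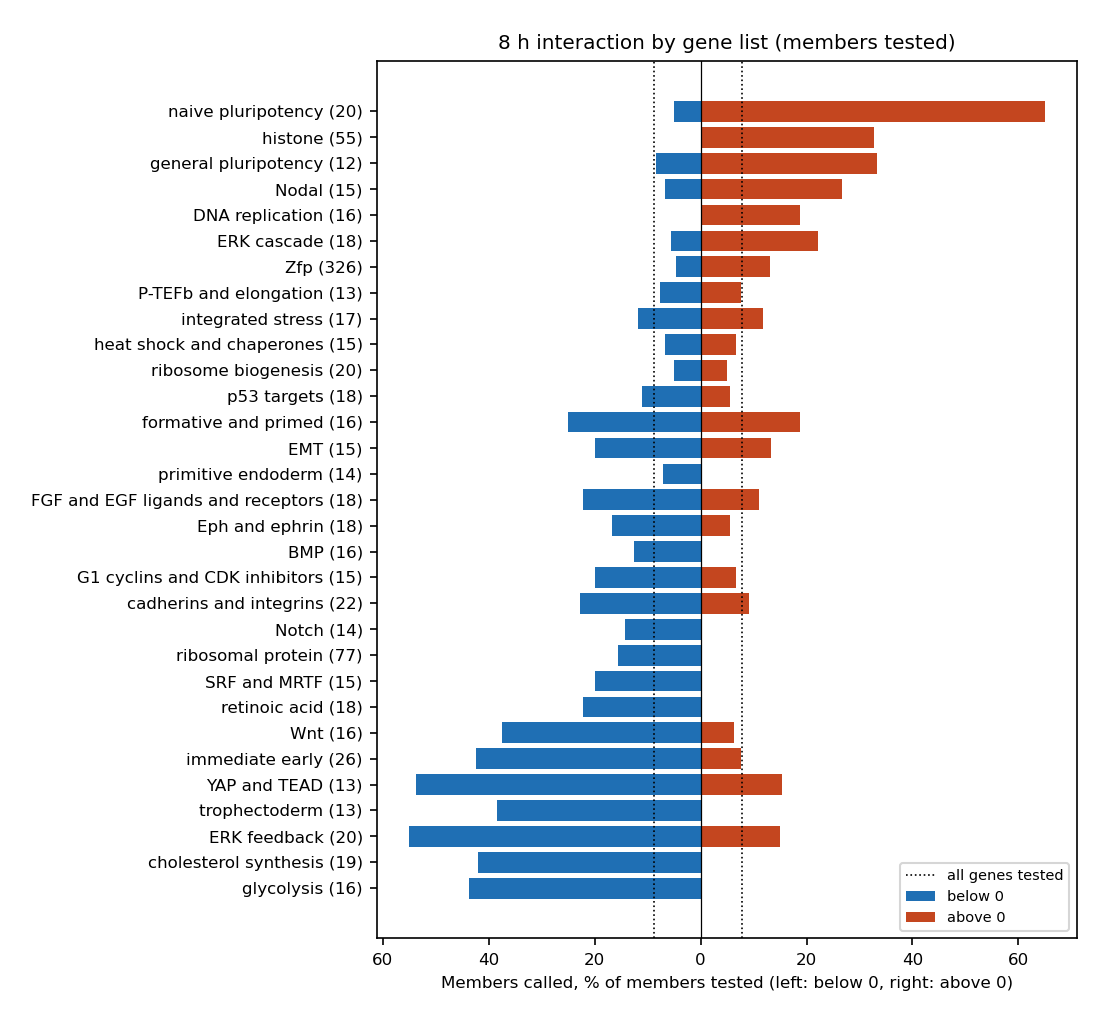
Share of the members tested that were called below 0 (left, blue) and above 0 (right, red) for each list with at least 12 genes tested, with the number tested in brackets. The dotted lines mark the shares over all genes tested, 8.88% and 7.88%. The naive pluripotency list reaches furthest to the right, with 13 of 20 members, and the ERK feedback list furthest to the left, with 11 of 20.

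In 63 genes above 0 and 94 genes below 0 the 8 h change passed the test in each genotype with opposite sign. Jun, Gata3, Tet2 and Gli1 were among them. The E3 ligase adaptor gene Spsb1 rose from 33.5, 30.5 and 32.5 to 54.8, 49.97 and 58.6 CPM in rescued clones and fell from 36.8, 28.4 and 29.9 to 20.7, 24.6 and 21.8 CPM in knockout clones (interaction -1.27 ± 0.13, adjusted p = 1.42e-08). The atypical chemokine receptor gene Ackr3 rose from 11.1, 12.4 and 11.2 to 24.5, 30.4 and 27.4 CPM in rescued clones and fell from 12.6, 14.7 and 14.8 to 8.67, 10.98 and 12.8 CPM in knockout clones (interaction -1.67 ± 0.20, adjusted p = 5.09e-07). The 8 h groups of both genes did not overlap. Spsb1 and Ackr3 were chosen after their values were seen.

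Gene length, taken from the GENCODE M21 annotation for 99% of the genes tested, differed between the sets. Its median was 62.9 kb among the genes above 0, 21.2 kb among those below 0 and 26.0 kb among all genes tested. In 5 groups of equal number, from the shortest to the longest genes, the share above 0 was 2.61%, 2.75%, 6.01%, 11.8% and 16.3%, while the share below 0 was 9.37%, 11.2%, 7.47%, 8.09% and 8.19%. Median levels differed too, at 9.87, 24.1, 29.9, 37.7 and 31.3 CPM in the same order. The part of expression level in these shares was not tested. The median interaction was -0.14 in the shortest and 0.12 in the longest group. Computed within clone letters it was -0.23 and 0.16 for A, -0.15 and 0.13 for B, and -0.03 and -0.01 for C, so clone C did not show the difference. The median log2 difference of knockout from rescued cells at 0 h was 0.106 in the shortest and -0.126 in the longest group. At 8 h that difference was -0.03 and -0.00207. The median interaction at 2 h was -0.14 and 0.152. What the pattern with length comes from was not tested. The counts of a labelled RNA can include introns, and whether introns were counted is not given in the sources used here.

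**Figure D5:**
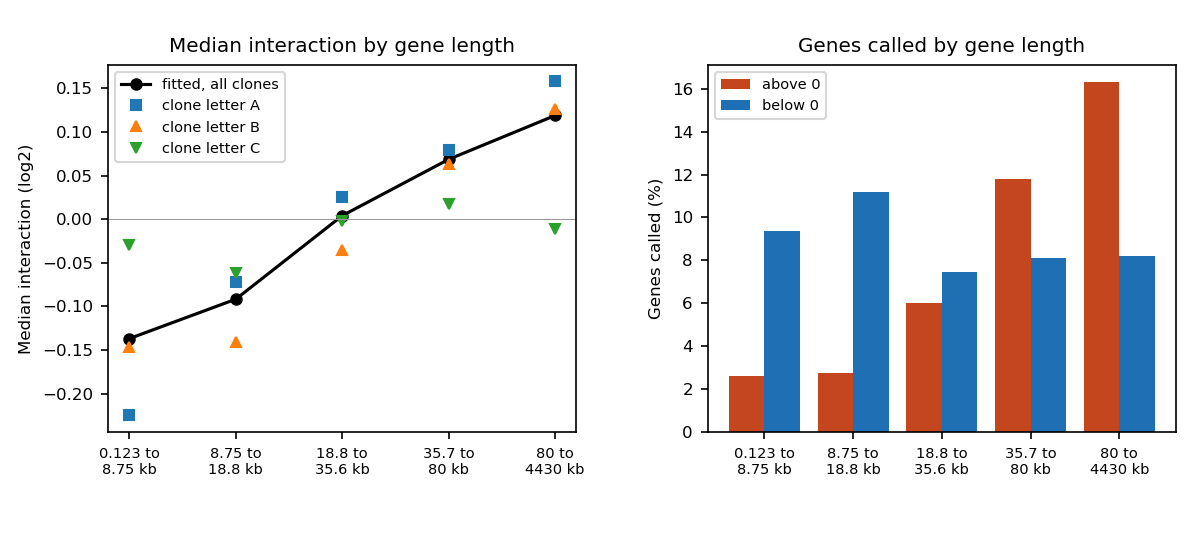
Left, median 8 h interaction (log2) in 5 groups of genes of equal number ordered by length, for the fit over all clones (line) and for each clone letter (points). Right, share of genes in each group called above 0 (red) and below 0 (blue). The share above 0 goes from 2.61% to 16.3%, and the medians of clone letter C stay near 0.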

How the data were processed

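Nascent RNA was counted per gene in 18 libraries. The authors deposited a table of whole-number counts, not normalized. Per the submitters' processing notes, STAR, featureCounts, DESeq and the build mm10 were used. The sources used here give no versions, strand setting, annotation or intron counting. No RNA spike-in is named, so levels are relative within a library.

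Counts were fitted with edgeR 4.0.16 (R 4.3.3): 6 group means over 18 libraries, TMM scaling, filterByExpr, quasi-likelihood F test of the interaction, Benjamini-Hochberg adjustment over 14128 genes, threshold 0.05. Standard errors were derived from the log2 change and F. The fit was run on simulated counts with the same spread for every gene and no differences between clones. The limit for passing was lowered after a first outcome was seen. That simulation cannot show how the fit performs on the 8 h knockout libraries. DESeq2 1.42.0 and limma 3.58.1 (voom) served as alternatives, with other scalings and filters, blocks and left-out libraries. Voom was run with sample quality weights. These were 0.387, 1.76 and 0.644 for 8 h knockout clones A, B and C, so clone B counted most and clone A least.

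Named genes were Med24, the 15 highest and 15 lowest called interactions averaging at least 5 CPM (predicted models passed over), up to 4 members with the smallest p of each of 41 lists, and members of the Nodal, naive, retinoic acid, ERK feedback and immediate early lists. Members and lists were chosen with earlier results of these data known. Some genes that these rules name are not reported here. The motifs were shortened after the data had been seen.

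The labels give groups the same clone letters, taken here as the same clones, which pairs the libraries. Same-letter deviations correlated by 0.0237 on average (-0.0232 to 0.0826 over 18 pairs), and in 9 of 12 libraries the own letter gave the best correlation. Clones are the replicates, so p-values measure the spread between clones. Total counts set the precision at low levels. Positions and lengths are from GENCODE M21 (GRCm38) and promoter windows from RefSeq.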

Additional observations from a re-analysis of the deposited data

Results flagged for a closer look

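The interaction is itself a test of whether the 8 h change differed between genotypes, and edgeR called 1113 genes above 0 and 1254 below 0. In 63 of the former and 94 of the latter the change passed the test in both genotypes with opposite signs. Groups of 3 libraries were too small for a test of single outlying libraries, but each library was left out in turn. Counts of replicate pairs were also compared by chi-square per degree of freedom. In the 8 h knockout group it was 57.3 for clones A and B, 103 for A and C and 9.35 for B and C. In the other groups it was 1.52 to 5.3.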

How the results depend on the processing

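Over 22 alternatives, the counts above and below 0 stayed within 1.5 times of 1113 and 1254, except that library totals alone, with no TMM, gave 109 genes above 0 and 1664 below, moved the median of all genes to -0.297 and the share of calls above 0 from 47.0% to 6.15%, and gave a retained slope of 0.8178. With library totals alone the 8 h interaction of Aff4 was -0.02037, of Etv5 -0.02457, of Mcm4 -0.04036, of Mcm5 -0.0781, of Mcm6 -0.03543, of Smad4 -0.05058 and of Trp53inp1 -0.02154, each above 0 with TMM. That scaling does not correct for the share of counts held by abundant genes. Leaving out each replicate in turn gave 757 (without 8 h rescued clone A) to 1211 (without 8 h knockout clone A) genes above 0, 915 to 1289 below 0, and slopes of 0.7612 to 0.8005. DESeq2 called 914 and 888 genes and limma voom 1323 and 1388. The fit without the 3 libraries rich in abundant genes, which counts among the 22 alternatives, kept clone A alone in the 8 h knockout group. Its number of calls is therefore not given. In that fit the interaction had the other sign for 6 of the 2367 genes called in the main fit.

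With clone letter as a replicate block, 1135 genes were above 0 and 1147 below, and with clone letter within genotype 1009 and 1030. Of the genes named in the report, the first block ended the call of Aldh1a3. The second ended those of Aldh1a3, Cdk8 (adjusted p = 0.0685) and Dusp10 (adjusted p = 0.0703). Either block left 0 Wnt genes and 0 ribosome biogenesis genes on the side that had held 1, above and below respectively, and the second gave 2 primitive endoderm genes below 0. The blocks changed no other call that the report names. With library totals alone Med24, Egr1, Etv1, Klf2, Esrrb, Tfcp2l1, Tcl1, Tet2, Gli1, Ptch1, Cdk19, Braf, Rps6ka3, Tet1 and Epha4 kept their direction and lost their call. So did Zfp42, Nr5a2 and Dusp10. Leaving out 1 library ended, in at least 1 case each, the calls of Aldh1a3, Cdk8, Dusp10, Etv5, Krt8, Mcm4, Mcm5, Mcm6, Med22, Nptxr, Ptch1, Shc1, Smad4, Tcl1 and Trp53inp1, and brought Gbx2 and Tdgf1 past the threshold in 1 case each. Lefty1 and Gbx2 passed with no filter on low counts. Low counts limit genes near 0 CPM in one group, such as Aldh1a3, Lefty1 and Ereg.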

Other observations

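Further lists gave values that belong to no comparison above. Of 6 markers of 2-cell-like cells, summed levels were 0.120 to 0.278 CPM in the rescued libraries at 0 h and 0.127 to 0.232 CPM at 8 h, and 1.92 to 2.53 CPM and 3.66 to 5.66 CPM in the knockout libraries. Only 2 of them were tested, and neither interaction passed. Of 18 ERK cascade genes, 4 were above 0, among them Braf (0.43 ± 0.08) and the kinase gene Rps6ka3 (0.43 ± 0.11), and 1 below, the adaptor gene Shc1 (-0.37 ± 0.11). The dioxygenase genes Tet1 (0.38 ± 0.09) and Tet2 were above 0 and Tet3 below (-0.80 ± 0.10), whereas the methyltransferase genes Dnmt1, Dnmt3a and Dnmt3b did not pass. Of 18 Eph and ephrin genes, the ligand genes Efnb2 (-0.98 ± 0.12), Efna4 (-0.84 ± 0.17) and Efna5 (-0.64 ± 0.17) were below 0 and the receptor gene Epha4 (0.38 ± 0.07) above. Of 15 genes of the SRF and actin list, 3 were below 0, the LIM protein gene Fhl2 (-1.98 ± 0.16), the focal adhesion gene Zyx (-0.77 ± 0.15) and the myosin gene Myh9 (-0.46 ± 0.08). Of 20 ribosome biogenesis genes, 20 rose in knockout cells (28.2% of all genes tested did) and 19 in rescued cells (30.7%). In this list 1 interaction was above 0 and 1 below. For comparison with each list here, 7.88% of all genes tested were above 0 and 8.88% below.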
